A study of Arabidopsis thaliana with 4 samples.

Results

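The chloroplast genome of *Arabidopsis thaliana* carries, beside the main body of its photosynthesis genes, a set of genes mostly for gene expression and general upkeep of the organelle. The 35 loci described here are the plastid *rpo*, *rps* and *rpl* genes, *clpP*, *accD*, *cemA*, *ccsA* and the *ycf* genes, and they were chosen by a fixed list of locus numbers out of 133 chloroplast loci and 32833 genes in the count tables. The *rpo* genes encode the core subunits of the bacterial-type RNA polymerase of the plastid, which needs sigma factors made in the nucleus to find its promoters and works beside phage-type polymerases that are also nuclear-encoded. The *rps* and *rpl* genes encode proteins of the small and the large subunit of the plastid ribosome, whose other proteins are imported from the cytosol. Of the single genes, *clpP* encodes a proteolytic subunit of the Clp protease, *accD* a subunit of the plastid acetyl-CoA carboxylase that starts fatty acid synthesis, *cemA* a protein of the inner envelope and *ccsA* a protein that attaches haem to c-type cytochromes.

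The libraries were made from whole seedlings at 14 days, 2 from the wild type Col-0 and 2 from *mettl4-1*, a mutant in the same Columbia background. The mutant carries a T-DNA in the first exon of *METTL4*, the gene of an RNA methyltransferase, and is a single insertion line, so that by the labels the comparison rests on 1 allele. The deposited table of *mettl4-1* replicate 2 carries another allele number in its name, and the sample label was followed. All seedlings were raised on Murashige and Skoog medium with added sucrose and without further treatment. The labels give 22 °C and 16 h of light for every library, but the study's methods give a slightly lower temperature for plants grown for RNA. The growth protocol gives 8 h of dark for all, whereas the source descriptions of Col-0 replicates 1 and 2 and *mettl4-1* replicates 1 and 2 read 8, 9, 10 and 11 h. No source used here says whether the replicates were separately grown plants, so the p-values measure the spread between these libraries, which may be technical. In whole seedlings, a higher or lower level of a chloroplast transcript per cell and a larger or smaller share of green cells cannot be told apart.

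Counts per library lay between 50862075 and 66003824. *METTL4* (AT1G19340) held 355 and 413 counts in the wild type and 35 and 46 in the mutant, which fits the labels. The leaf genes *RBCS1A*, *RBCS1B*, *RBCS2B* and *RCA* summed to 25899 and 25854 CPM (counts per 1000000, normalized by TMM) in Col-0 and to 23352 and 24515 in *mettl4-1*, so that the labelled seedlings held leaf tissue. Seed storage genes (*CRA1*, *CRU2*, *CRU3*, *SESA1* and *SESA3*) summed to 63.6 and 63.7 CPM in Col-0 and to 2.89 and 2.68 in *mettl4-1*, and 3 of the 5 were at 0 counts in both mutant libraries. The libraries were made with a kit that captures RNA by its poly(A) tail. *mettl4-1* replicate 1 stood apart from the other libraries, with 3.65% of its counts on the 18S ribosomal RNA loci AT2G01010 and AT3G41768 of the nucleus, against 1.25% in *mettl4-1* replicate 2 and 0.495% and 0.369% in Col-0. The main counts of calls and the called loci are therefore also given without this library.

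The count tables hold locus numbers without gene names. The RefSeq annotation of TAIR10.1 lists 39 plastid genes of these families under symbols of its own, 4 of them *rpo*, 14 *rps* and 11 *rpl* genes, and does not pair them with the locus numbers. Notes on nuclear relatives give the product of a few of the 35 loci. ATCG00530 is given as a CemA-like proton extrusion protein, ATCG00660 as ribosomal protein L20, ATCG00670 as plastid-encoded ClpP and ATCG01310 as ribosomal protein L2. The other loci are described by number, with no role given.

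Because the RNA was captured by poly(A), the longest run of A on the coding strand of each of these 4 genes is shown, in capitals inside a window of 30 bases read from RefSeq's plastid chromosome (Pltd, TAIR10.1) and written 5′ to 3′ on the coding strand.
*cemA*, Pltd 60741 to 61430, plus strand: atggcAAAAAAgaaagcattcattcctttt
*rpl20*, Pltd 68512 to 68865, minus strand: tatacaatttcgaatgacatAAAAAAAtaa
*clpP*, Pltd 69910 to 71882, minus strand: cacaccgtAAAAAAAAAAAAAgacactttg
*rpl2*, Pltd 84337 to 85843, minus strand, and 152806 to 154312, plus strand: ccaattggtagAAAAAAAcccgtaaccccc
The run of 13 A in *clpP* lies in an intron, and a run of this length or longer occurs in 5 of the 85 plastid protein-coding genes that RefSeq lists (5.88%). The runs of 7 in *rpl20* and *rpl2* lie in exons, and 38 of the 85 genes (44.7%) hold one as long. In *cemA* the run of 6 A starts at base 6 of the gene, and 49 of the 85 genes (57.6%) hold one as long. RefSeq lists *rpl2*, *rpl23*, *rps7* and *ycf2* in 2 copies each, identical over their whole length (100%). Reads of such copies cannot be assigned to 1 of them, so the counts of ATCG01310 are uncertain, and which of the unnamed loci are copies was not examined.

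Of the 35 loci, 31 passed the filter on low counts and were tested. By edgeR's quasi-likelihood test, 10 of them were higher in *mettl4-1* and 0 lower at the study's thresholds (1.5-fold or more, unadjusted p under 0.05). Over all 21673 genes tested, 0.937% were called higher and 0.683% lower. The study applied these thresholds to DESeq2, whose Wald test called 5 of the 31 higher here (background 0.558%) and 0 lower. By edgeR the 10 were ATCG00160, ATCG00170, ATCG00180, ATCG00330, ATCG00360, ATCG00380, ATCG00500, ATCG00520, ATCG00830 and ATCG01040. With the Benjamini-Hochberg adjusted p (over all genes tested) under 0.05 at the same fold, 2 remained higher, ATCG00330 and ATCG00360, where the background was 0.314%. Without a fold limit the adjusted p was under 0.05 for 5 loci (background 0.96%), these 2 and ATCG00670, ATCG00810 and ATCG01310. Without *mettl4-1* replicate 1 that count was 9 (background 1.97%), the same 5 among them. An unadjusted p under 0.05 without a fold limit was reached by 21 loci, all on the higher side (background 6.83%), by 14 without *mettl4-1* replicate 1 (7.08%) and by 9 with DESeq2 (2.65%). On the lower side that count was 0 with edgeR (background 8.4%). It was also 0 with DESeq2's Wald test and with limma-voom, for which no lower-side share over all genes was taken. The median log2 fold change of the 31 was 0.34, beside 0.0015 over all genes tested. Without *mettl4-1* replicate 1 the median of the 31 was 0.15. The fit without that library has a single mutant library and takes its replicate spread from the Col-0 pair alone. Its counts by p-value can therefore rise while the changes shrink, and they are not stronger evidence for a change.

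**Figure D1:**
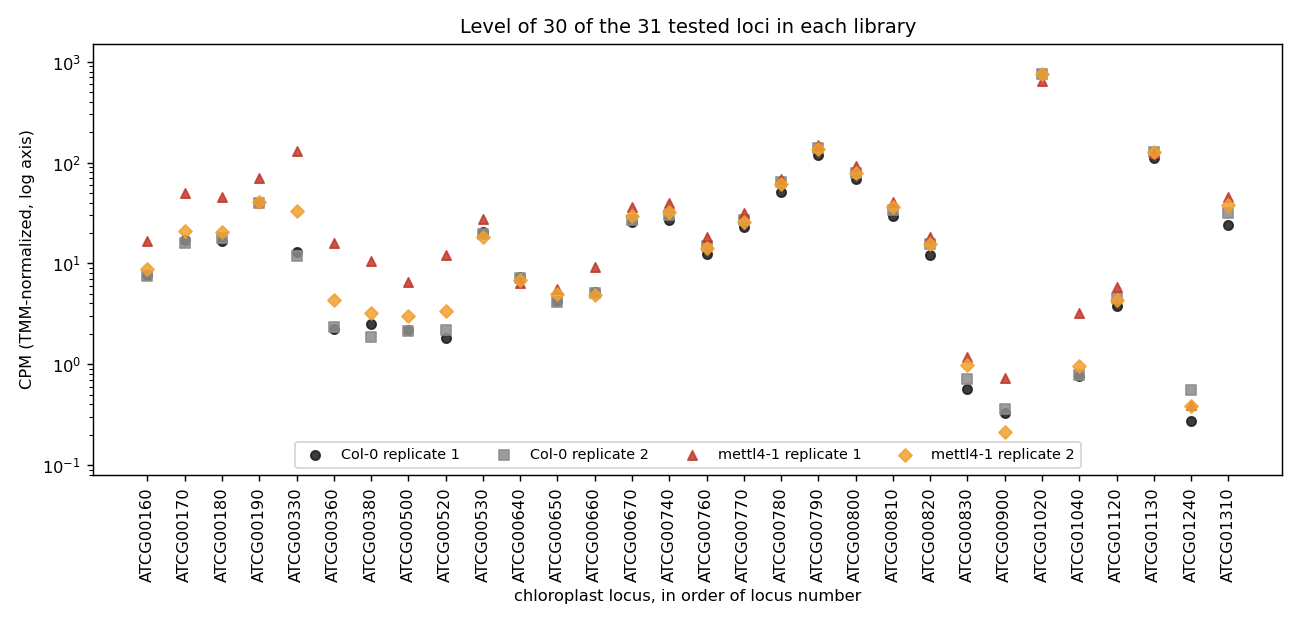
Level of each tested locus in the 4 libraries, as CPM on a log axis (vertical), with 30 of the 31 loci in order of their number (horizontal); circles and squares are the Col-0 libraries, triangles and diamonds *mettl4-1* replicates 1 and 2. *mettl4-1* replicate 1 is the highest of the 4 libraries in 26 of the 30 loci, and the share over all genes was not taken. ATCG01020, the locus with the most counts, is lowest in that library at 649 CPM.

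The calls rested unevenly on the mutant libraries. *mettl4-1* replicate 1 was above both Col-0 libraries in 27 of the 31 loci and replicate 2 in 17, where 38.3% and 37.6% of all genes tested were. Both mutant libraries lay above both Col-0 libraries in 16 loci (22.8% of all genes) and below both in 1 (23% of all genes), ATCG00640. Without *mettl4-1* replicate 1, 4 loci were called higher, ATCG00330, ATCG00360, ATCG00380 and ATCG00520, against a background of 0.867%. DESeq2's Wald test on all 4 libraries called 5 (background 0.558%), ATCG00330, ATCG00360, ATCG00380, ATCG00500 and ATCG00520, and all 5 were among the 10.

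ATCG00330 showed the largest change of the 31 loci. The wild-type libraries held 712 and 783 counts, replicates 1 and 2 of the mutant 6624 and 1720. Its level was 12.4 ± 0.842 CPM (SD, n = 2) in the wild type, 131 CPM in *mettl4-1* replicate 1 and 33.4 CPM in replicate 2. The groups did not overlap, but the mutant libraries differed from each other by 3.92-fold. The log2 fold change was 2.74 (standard error 0.48, edgeR adjusted p = 0.0124). Without *mettl4-1* replicate 1 it was 1.44 and still called, in a fit that assumes the single mutant library to vary like the Col-0 pair.

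ATCG00330 is followed in number by 2 chloroplast loci outside the list that changed alike. The log2 fold change was 3.31 (standard error 0.52) for ATCG00340 and 3.38 (standard error 0.53) for ATCG00350, with 58190 and 53411 counts in *mettl4-1* replicate 1, where the first wild-type library held 4274 and 3822. The next number is ATCG00360, which is in the list again and held 122 and 157 counts in the wild type and 809 and 223 in the mutant. The fitted change of 2.15 on the log2 scale (standard error 0.46, edgeR adjusted p = 0.0352) was 0.92 without replicate 1 of the mutant. Thus the loci numbered from ATCG00330 to ATCG00360 were all called higher, in decreasing size on either side of ATCG00350.

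ATCG00380 and ATCG00520 also kept their call without *mettl4-1* replicate 1. ATCG00380 held 138 and 124 counts in the wild type and 537 and 167 in the mutant. Its level was 2.19 ± 0.458 CPM (SD, n = 2) in the wild type and 10.6 and 3.24 CPM in the mutant libraries. The log2 fold change was 1.67 (standard error 0.42, edgeR adjusted p = 0.0681) and 0.59 without replicate 1, just past the 1.5-fold limit. ATCG00520 held 99 and 147 counts in the wild type and 611 and 172 in the mutant. The change of 1.93 on the log2 scale (standard error 0.45, edgeR adjusted p = 0.0508) was 0.73 without replicate 1. In both loci *mettl4-1* replicate 2 lay above the Col-0 libraries and far below *mettl4-1* replicate 1.

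ATCG00500 and ATCG01040 were called through *mettl4-1* replicate 1. ATCG00500 held 119 and 143 counts in the wild type and 330 and 153 in the mutant, that is 2.16 ± 0.012 CPM (SD, n = 2) against 6.53 and 2.97 CPM. The fitted log2 value of 1.14 (standard error 0.28, edgeR adjusted p = 0.0668) was 0.46 without that library, under the 1.5-fold limit. ATCG01040 held 42 and 52 counts in the wild type and 162 and 49 in the mutant. Its log2 fold change of 1.42 (standard error 0.44, edgeR adjusted p = 0.135) was 0.30 without replicate 1. *mettl4-1* replicate 2, at 0.952 CPM, was then close to the 0.764 and 0.781 CPM of the Col-0 libraries.

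ATCG00160, ATCG00170, ATCG00180 and ATCG00190 follow each other in number, and in all 4 *mettl4-1* replicate 1 was the highest library. ATCG00160 held 419 and 499 counts in the wild type and 848 and 452 in the mutant, with a log2 fold change of 0.76 (standard error 0.22, edgeR adjusted p = 0.11). ATCG00170 held 946 and 1057 counts in the wild type and 2550 and 1081 in the mutant, with a log2 fold change of 1.11 (standard error 0.29, edgeR adjusted p = 0.0745). ATCG00180 held 909 and 1184 counts in the wild type and 2284 and 1055 in the mutant, with a log2 fold change of 0.93 (standard error 0.26, edgeR adjusted p = 0.0956). In these 3 loci the groups did not overlap, and *mettl4-1* replicate 1 was 1.91- to 2.40-fold above replicate 2.

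ATCG00190, with the highest count of the 4, held 2198 and 2642 counts in the wild type and 3558 and 2084 in the mutant. *mettl4-1* replicate 2 (40.5 CPM) was next to Col-0 (40.0 and 39.7 CPM), and replicate 1 was at 70.4 CPM. The log2 fold change of 0.48 (standard error 0.18, edgeR adjusted p = 0.219) was not called. Without *mettl4-1* replicate 1, none of the 4 loci was called, with log2 fold changes of 0.22, 0.35, 0.25 and 0.025 in order of number. The locus before them, ATCG00150, is outside the list and changed by 0.86 on the log2 scale (standard error 0.25).

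**Figure D2:**
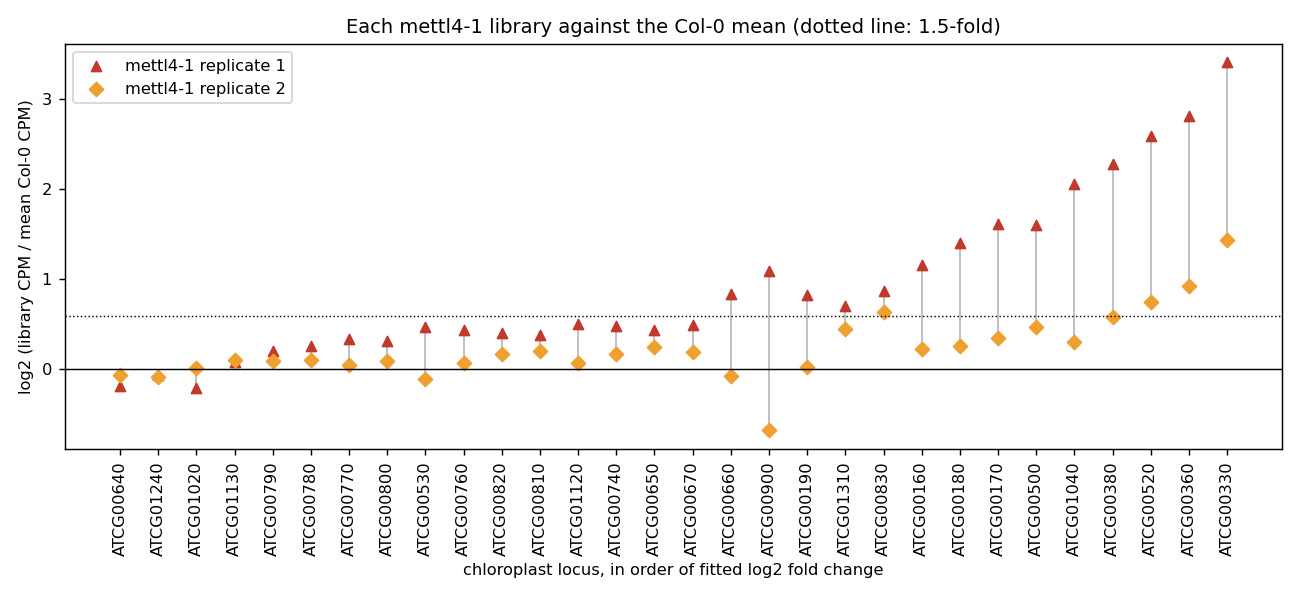
Log2 ratio of each *mettl4-1* library to the mean of the 2 Col-0 libraries (vertical, CPM scaled by TMM) for 30 of the 31 tested loci in order of their fitted log2 fold change (horizontal); triangles are replicate 1, diamonds replicate 2, the grey line joins them and the dotted line marks 1.5-fold. Replicate 1 reached 1.5-fold above the Col-0 mean in 14 loci and replicate 2 in 4, and the share over all genes was not taken. The libraries differ by 3.92-fold in ATCG00330 and, on few counts, by 3.42-fold in ATCG00900.

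The loci numbered from ATCG00740 to ATCG00840 form the longest unbroken run of the list, with 11 loci of which 10 were tested. In the 9 loci from ATCG00740 to ATCG00820 the differences were small and alike, with log2 fold changes between 0.14 and 0.32 and standard errors between 0.064 and 0.11. None of the 9 reached 1.5-fold in either mutant library. Without *mettl4-1* replicate 1 their log2 fold changes were 0.036 to 0.19. *mettl4-1* replicate 1 was 1.15- to 1.39-fold and replicate 2 1.03- to 1.15-fold above the Col-0 mean, and in 7 of the 9 loci replicate 2 lay between the Col-0 libraries. The Col-0 libraries themselves differed in 1 direction, replicate 1 being at 0.762 to 0.891 times the level of replicate 2.

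ATCG00740 and ATCG00760 held 1496, 2033, 2028 and 1662 counts and 687, 983, 931 and 731 counts in Col-0 replicates 1 and 2 and *mettl4-1* replicates 1 and 2. They had log2 fold changes of 0.32 and 0.25, and neither was called. In ATCG00740 both mutant libraries lay above both Col-0 libraries, whereas in ATCG00760 *mettl4-1* replicate 2 (14.2 CPM) lay between them (12.5 and 14.8 CPM).

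ATCG00790 held the most counts of the run, with 6567 and 9352 in Col-0 and 7544 and 7077 in *mettl4-1*, and the smallest change, with a log2 fold change of 0.14 (standard error 0.064, edgeR adjusted p = 0.328). ATCG00770, ATCG00780 and ATCG00800 had log2 fold changes of 0.19, 0.17 and 0.20. In the 4 libraries in the same order, ATCG00770 held 1265, 1806, 1598 and 1329 counts, ATCG00780 held 2816, 4231, 3452 and 3157 and ATCG00800 held 3805, 5282, 4655 and 4069. In all of these, *mettl4-1* replicate 2 fell between the Col-0 libraries. ATCG00810 (1632 and 2248 counts in the wild type, 2077 and 1875 in the mutant) was the member of the run with the smallest adjusted p, with a log2 fold change of 0.29 (standard error 0.066, edgeR adjusted p = 0.0483), and its groups did not overlap. ATCG00820 held 659, 1048, 925 and 797 counts, with a log2 fold change of 0.28 (standard error 0.11) that was not called.

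ATCG00830 was the exception in the run and was called higher on few counts. It held 31 and 48 counts in the wild type and 59 and 51 in the mutant, that is 0.564 and 0.721 CPM against 1.17 and 0.991 CPM. The mutant libraries were close to each other here (1.18-fold). Its log2 fold change of 0.73 (standard error 0.23, edgeR adjusted p = 0.144) was 0.61 without *mettl4-1* replicate 1 and 0.58 without Col-0 replicate 1, and neither fit called it. The last locus of the run, ATCG00840, held 5, 7, 6 and 4 counts and was not tested.

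ATCG01310, ribosomal protein L2 of the large subunit by the RefSeq note, had the smallest adjusted p among the loci that were not called. It held 1336 and 2105 counts in the wild type and 2289 and 1956 in the mutant, or 28.0 ± 5.17 CPM (SD, n = 2) against 41.6 ± 5.14 CPM (SD, n = 2). Both mutant libraries lay above both Col-0 libraries and differed from each other by 1.19-fold. The log2 fold change of 0.57 (standard error 0.10, edgeR adjusted p = 0.0168) fell just short of the 1.5-fold limit. It ranged from 0.40 to 0.78 as each library was left out.

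ATCG00640, ATCG00650, ATCG00660 and ATCG00670 follow each other in number and held none of the calls. ATCG00670, plastid-encoded ClpP, held 1411 and 1781 counts in the wild type and 1850 and 1529 in the mutant, or 26.2 ± 0.766 CPM (SD, n = 2) against 33.2 ± 4.87 CPM (SD, n = 2). It changed by 0.34 on the log2 scale (standard error 0.078, edgeR adjusted p = 0.0478), with both mutant libraries above both Col-0 libraries, and it was 0.18 without *mettl4-1* replicate 1. ATCG00660, ribosomal protein L20 of the large subunit, held 285 and 337 counts in the wild type and 461 and 249 in the mutant. The fitted change was 0.45 on the log2 scale (standard error 0.22, edgeR adjusted p = 0.365), and the sign turned to −0.081 without *mettl4-1* replicate 1, the only library above Col-0.

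The other 2 of these loci had log2 fold changes of opposite sign, both under 1.5-fold. ATCG00650 held 232 and 274 counts in the wild type and 283 and 253 in the mutant, with a log2 fold change of 0.34 (standard error 0.10, edgeR adjusted p = 0.134). ATCG00640 held 400 and 480 counts in the wild type and 321 and 354 in the mutant. It was the locus of the list with both mutant libraries below both Col-0 libraries, at 6.35 and 6.88 CPM against 7.27 and 7.21 CPM, and its log2 fold change of −0.13 (standard error 0.081, edgeR adjusted p = 0.503) was not called.

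ATCG00530, the CemA-like protein of the RefSeq note, held 1122 and 1296 counts in the wild type and 1388 and 949 in the mutant. *mettl4-1* replicate 1 (27.5 CPM) was above and replicate 2 (18.4 CPM) below both Col-0 libraries (20.4 and 19.5 CPM). Its log2 fold change of 0.20 (standard error 0.13, edgeR adjusted p = 0.524) therefore lay within the spread of the mutant libraries. Its neighbour in number, ATCG00520, was among the loci that kept their call.

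ATCG01020 carried about as many counts as the other 34 loci together, at 53.0% and 49.98% of the counts on the list in Col-0 and 37.0% and 48.7% in *mettl4-1* replicates 1 and 2. It held 41271 and 50037 counts in the wild type and 32812 and 38752 in the mutant, or 751 and 751 CPM against 649 and 753 CPM. Only *mettl4-1* replicate 1 differed from the rest, and downwards. The log2 fold change was −0.099 (standard error 0.051, edgeR adjusted p = 0.4) and 0.0042 without that library. ATCG01130, with the next highest counts outside the long run (6066 and 8510 in Col-0, 6352 and 6567 in *mettl4-1*), was at 0.088 on the log2 scale (standard error 0.055) and not called, and *mettl4-1* replicate 1 lay between the Col-0 libraries.

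ATCG01120 held 210 and 300 counts in the wild type and 298 and 224 in the mutant, with a log2 fold change of 0.29 (standard error 0.14) that was not called and was 0.056 without *mettl4-1* replicate 1. The remaining loci had too few counts to place. ATCG00900 held 18, 24, 37 and 11 counts in the 4 libraries and ATCG01240 held 15, 37, 20 and 20, and neither was called (log2 fold changes of 0.45 and −0.11, standard errors of 0.47 and 0.37). Of the 4 untested loci, ATCG00840 held at most 7 counts in any library and ATCG01300 held 3, 4, 5 and 3. ATCG00860 held 2, 2, 13 and 1 counts and ATCG01280 held 4, 3, 25 and 2, so that *mettl4-1* replicate 1 was the highest library in these as well. No difference was detectable at these counts in the other 3 libraries of these loci.

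Levels of the 4 named genes were compared per kilobase of exon, on the CPM scale, in Col-0 replicate 1. They were 43.4 for *clpP*, 29.6 for *cemA*, 29.5 for *rpl2* and 14.6 CPM per kilobase for *rpl20*. In Col-0 replicate 2 the values were 45.3, 28.2, 38.3 and 14.3 in the same order of genes. *clpP* stayed highest and *rpl20* lowest in both, while *cemA* and *rpl2* changed places within the spread of the Col-0 libraries. In *mettl4-1* replicate 2 the values for *clpP*, *cemA*, *rpl2* and *rpl20* were 50.3, 26.7, 46.1 and 13.7, again with *clpP* at the top and *rpl20* at the bottom. In *mettl4-1* replicate 1 they were 61.9, 39.8, 54.9 and 25.8. The values and rank of *rpl2* are uncertain, because reads of its 2 identical copies cannot be assigned and only ATCG01310 was used. Intron reads of *clpP* and *rpl2* may be counted or not, depending on settings that the sources used here do not state.

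**Figure D3:**
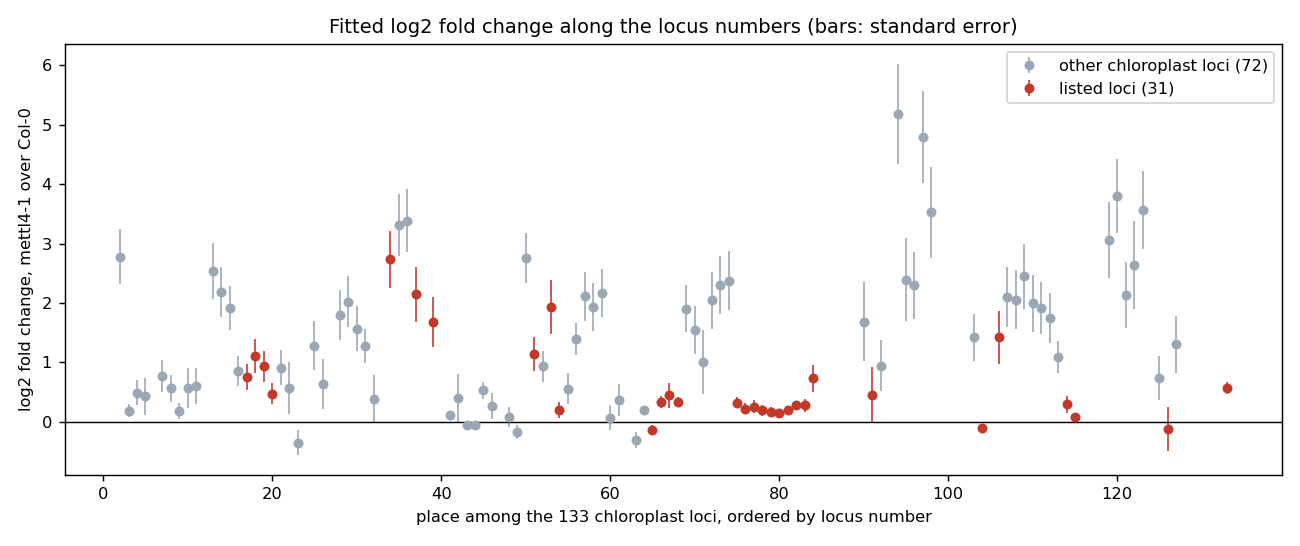
Fitted log2 fold change of *mettl4-1* over Col-0 (vertical, scaled by TMM; bars are standard errors) for the tested chloroplast loci, placed by rank of their locus number among 133 (horizontal); red points are the 31 listed loci, grey points the 72 others. The run from ATCG00740 to ATCG00820 stays between 0.14 and 0.32, while ATCG00330 reaches 2.74 beside its 2 grey neighbours at 3.31 and 3.38.

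The list was set beside the other chloroplast loci. Of 72 others tested, 46 (63.9%) were called higher at the same thresholds by edgeR, against 10 of 31 (32.3%) on the list, and the mitochondrial loci had 29 of 39 (74.4%). The medians of the log2 fold change were 1.41 for the other chloroplast loci, 1.70 for the mitochondrial ones and 0.34 for the list. Without *mettl4-1* replicate 1 they were 0.58, 0.64 and 0.15. The difference between the list and the other loci was not tested. When the other chloroplast loci set the scale, the median of all genes moved to −1.14 and that of the list to −0.88, and 28 of the 31 loci were above the median of all genes, as on the TMM scale. On that scale edgeR called 0 listed loci in either direction, and 0 had an unadjusted p under 0.05. The scale gave *mettl4-1* replicate 1 a factor of 2.45 and replicate 2 one of 0.893, and the standard errors grew. That of ATCG01020 was 0.99, against 0.051 with TMM, and that of ATCG00330 was 0.98, against 0.48. With errors of this size the fit could hardly call a locus, so the 0 does not show an absence of change.

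**Figure D4:**
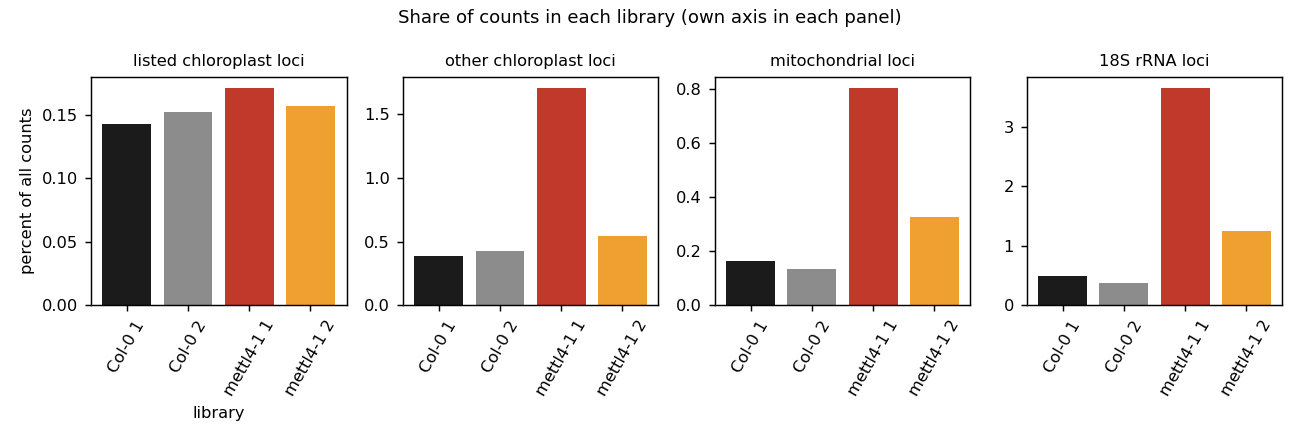
Percent of all counts (vertical, from 0, each panel with its own axis) on the 35 listed chloroplast loci, the other chloroplast loci, the mitochondrial loci and the 18S ribosomal RNA loci, 1 bar for each library. All panels peak in *mettl4-1* replicate 1, the listed loci at 0.171% (lowest library 0.142%) and the others at 1.70%, 0.803% and 3.65%.

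As a share of all counts, the 35 loci took 0.142% and 0.152% in Col-0 and 0.171% and 0.157% in *mettl4-1* replicates 1 and 2. Both mutant libraries were above both Col-0 libraries, but the difference of 0.0168 percentage points had p = 0.33 in an exact two-sided permutation test, the smallest value that 2 against 2 libraries allow. The other 98 chloroplast loci took 0.385% and 0.429% in Col-0 and 1.70% and 0.547% in *mettl4-1*. Hence the list made up 27.0% and 26.1% of the chloroplast counts in the wild type, 22.2% in *mettl4-1* replicate 2 and 9.12% in replicate 1. The 10 loci called higher held 4.55% and 4.19% of the list's counts in the wild type and 16.7% and 6.43% in the mutant. These loci were chosen as higher in the same libraries, so their larger share in the mutant is built into the choice and is no further evidence. From *mettl4-1* replicate 1 to replicate 2 their share fell, as did the 18S share given above. The part of poly(A)-poor RNA in these differences was not tested.

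Nuclear genes for the same machinery were examined as 6 lists with 70 genes, all of them tested. They are the proteins bound to the plastid-encoded polymerase (13), sigma factors and phage-type polymerases (8), nuclear-encoded proteins of the plastid ribosome (11 of the small and 26 of the large subunit), the Clp protease core (8) and the acetyl-CoA carboxylase (4). By edgeR 0 of the 70 were called in either direction at the study's thresholds, where the edgeR background was 0.937% higher and 0.683% lower. DESeq2 (background 0.558% higher) and limma-voom (background not taken) also called 0 of them. With edgeR an unadjusted p under 0.05 was reached by 1 gene on the higher and 25 on the lower side, where 6.83% and 8.4% of all genes tested reached it. Their log2 fold changes ranged from −0.19 to 0.076.

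The nuclear-encoded ribosomal proteins lay mostly on the lower side, opposite to the plastid loci. Of 37 genes, 36 had a log2 fold change below 0 (10682 of all 21673 genes tested did), with a median of −0.071. The 4 leaf genes, the 4 acetyl-CoA carboxylase genes and 6 of the 8 Clp core genes also lay below 0. So did 7 of the 13 polymerase-bound proteins and 2 of the 8 sigma factors and phage-type polymerases. Of the 37 genes, 4 fell with an adjusted p under 0.05 without a fold limit (1.87% of all genes did so). Among them were *RPL12-C* (log2 fold change −0.16), *PRPL28* (−0.14) and AT1G29070 (−0.19, annotated as ribosomal protein L34). *RPS1*, the most abundant of the small-subunit list, had 610 ± 3.62 CPM (SD, n = 2) in the wild type and 599 ± 13.1 (SD, n = 2) in the mutant, a difference within the spread of the mutant libraries. *CAC1*, the biotin carboxyl carrier subunit of the acetyl-CoA carboxylase, fell by 0.18 on the log2 scale (edgeR adjusted p = 0.0493).

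The proteins bound to the polymerase had a median log2 fold change of −0.0076 over 13 genes and the sigma factors and phage-type polymerases one of 0.041 over 8, and 0 of these 21 had an adjusted p under 0.05. *PTAC6*, the most abundant of the polymerase-bound proteins, was at 137 ± 2.65 CPM (SD, n = 2) in the wild type and 132 ± 1.23 (SD, n = 2) in the mutant. *SIG2* was at 163 ± 4.42 (SD, n = 2) and 163 ± 1.12 CPM (SD, n = 2). Among the 8 genes of the Clp core, partners of the plastid ClpP, *CLPR1* was at 291 ± 1.47 (SD, n = 2) and 294 ± 1.60 CPM (SD, n = 2).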

How the data were processed

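Libraries were stranded and paired-end. The authors used Cutadapt 3.5 for trimming, Hisat2 2.2.1 for alignment to TAIR10, SAMtools 1.13 to retain well-mapped reads and FeatureCounts 2.0.1 for the gene totals. For differential expression the authors used DESeq2 1.32.0. They deposited raw counts for each library. The mapping-quality limit and the strand, multi-mapping and overlap settings are not given in the sources used here, and they decide the counts of repeated or overlapping loci. The table of *mettl4-1* replicate 2 carries another allele number in its name and the column name of replicate 1, and was assigned by its sample record.

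Counts were fitted for all genes together in R 4.3.3 with edgeR 4.0.16 (TMM, filterByExpr with a minimum count of 10, glmQLFit and glmQLFTest, genotype only). The steps were first run on simulated data with the same small dispersion for every gene and changes only in well-counted genes. That run does not speak for loci with few counts or with mutant libraries far apart. Standard errors come from the F statistic, and p-values are Benjamini-Hochberg adjusted over the 21673 genes tested. DESeq2 1.42.0, limma 3.58.1, other scales and filters, a replicate block and the omission of each library were alternatives. Replicates differed beyond sampling noise, with 179 nuclear genes in Col-0 and 968 in *mettl4-1* past a chi-square test adjusted at 0.05. A library of this size puts 3 counts at 0.0455 to 0.059 CPM, which covers counting error only.

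Members and lists were chosen with earlier results of these data known. The rule allowed every listed locus to be mentioned, but 1 locus and 1 nuclear gene are not reported here, although the counts and medians include them. Ordering them by class, as planned, was not possible, because no table used here pairs most locus numbers with names. From each nuclear list, the gene with the highest mean CPM and up to 3 genes past the study's thresholds were to be named, and 0 passed. *RPL12-C*, *PRPL28*, AT1G29070 and *CAC1* were named after their values were seen, and so were the chloroplast neighbours by number. The most abundant large-subunit gene was *emb2394* (log2 fold change −0.017) and that of the acetyl-CoA carboxylase *CAC3* (−0.064).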

Additional observations from a re-analysis of the deposited data

How the results depend on the processing

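Every reported locus that passed the filter on low counts kept its direction and its side of the study's thresholds with DESeq2 size factors, with nuclear genes setting the scale, with limma-voom, with a stricter filter and with none. Without a filter ATCG01280, which did not pass it, was also called (11 in all). Where the other chloroplast loci set the scale, 0 were called, with the large standard errors given above. Called loci numbered 10 with edgeR, 5 with the Wald test of DESeq2, the tool of the study, and 21 without a fold limit. With each library left out, they numbered 4 to 14, 4 being without *mettl4-1* replicate 1. At an adjusted p under 0.05 the count of 2 became 9 without a filter on low counts, 0 with DESeq2, 0 with limma-voom, 0 on the scale of the other chloroplast loci and 4 to 12 with a library left out. With a library left out, a genotype has a single library and the replicate spread comes from the other pair alone. A higher count in such a fit is therefore not stronger evidence for a change. The replicate numbers share no stated batch, and the deviations of same-numbered libraries correlated at −0.018 over all tested genes and at 0.46 over the listed loci. With a replicate block, the count by adjusted p was 8 and the study's thresholds still called 10. Apart from the backgrounds given above, the share over all genes was not taken in these alternative fits. Their counts therefore cannot be read against a background, which may have risen or fallen with them. The median of the listed loci was 0.15 to 0.48 with a library left out, and the difference of their share of counts 0.0096 to 0.0239 percentage points.

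On the scale of the other chloroplast loci, where the median of the listed loci was −0.88 beside −1.14 for all genes, these signs turned: ATCG00160 to −0.61, ATCG00170 to −0.34, ATCG00180 to −0.48, ATCG00190 to −0.85, ATCG00500 to −0.28, ATCG00530 to −1.07, ATCG00650 to −0.85, ATCG00660 to −0.92 and ATCG00670 to −0.87. In the long run they were −0.88 for ATCG00740, −0.96 for ATCG00760, −1.004 for ATCG00770, −0.99 for ATCG00780, −1.02 for ATCG00790, −0.98 for ATCG00800, −0.88 for ATCG00810, −0.90 for ATCG00820 and −0.46 for ATCG00830. The others were ATCG00900 at −1.09, ATCG01040 at −0.13, ATCG01120 at −0.94, ATCG01130 at −1.04 and ATCG01310 at −0.61. This follows from the scale, on which all genes shift down. With a library left out, signs turned within −0.11 to 0.46 for ATCG00530, −0.081 to 0.83 for ATCG00660, −0.69 to 1.08 for ATCG00900, −0.21 to 0.0042 for ATCG01020, −0.013 to 0.20 for ATCG01130 and −0.50 to 0.52 for ATCG01240, none of them called with all 4 libraries. Loci under about 40 counts are limited by these low counts. Whether depth or unassigned reads of identical copies made them low was not tested.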
